A study of Mus musculus with 47 samples.

Results

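The genes described here are the chromatin modifiers and remodelers of the mouse hippocampus: the families of enzymes known for adding or removing acetyl and methyl groups on histones, some members of which act on other proteins or in mitochondria, and the motor and accessory subunits of complexes that move nucleosomes. They were taken from the count table by symbol alone. A gene was a member if its symbol began with Kmt, Kdm, Setd, Ehmt, Chd, Arid, Hdac, Sirt or Kat followed by a number, or with Smarc, and if its reads summed over the 47 libraries came to at least 470. Of 35486 genes in the table, 96 symbols matched, and the Y-linked Kdm5d was left out by the rule. Kdm6bos, with 425 reads in all, and Arid3c, with 14, fell under the minimum, and the lowest genes inside it were Kdm4d with 843 reads and Arid3a with 1523. That left 93 members: 17 Kdm, 13 Smarc, 11 Hdac, 10 Chd, 9 Arid, 8 Kat, 8 Kmt, 8 Setd, 7 Sirt and 2 Ehmt genes. All 93 were among the 17778 genes that passed the count filter of the test.

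The study asked whether platelet factor 4 (PF4), a chemokine released by platelets, alters hippocampal gene expression in young and in old mice. Male C57BL/6J mice received recombinant mouse PF4 or its vehicle by daily intraperitoneal injection, and RNA of the whole hippocampus was sequenced. The 4 groups were Young Veh (13 mice of 3.75 to 5.26 months given vehicle), Young PF4 (12 mice of 4.08 to 5.03 months given PF4), Old Veh (12 mice of 17.47 to 19.97 months given vehicle) and Old PF4 (10 mice of 17.4 to 20.23 months given PF4). The labels name no transgene and no further agent for any group.

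DNA in the nucleus is wound around histones, and the chemical marks on histone tails set how readily a gene is read. Writers such as the KMT2, SETD and KAT enzymes place methyl or acetyl groups, erasers such as the KDM, HDAC and sirtuin enzymes take them off, and remodelers such as the BAF complex and the CHD proteins slide or evict nucleosomes using ATP. In the hippocampus these enzymes are known for their part in memory, in activity-dependent transcription and in neurodevelopmental disorders, in which mutations of many of them are found.

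Library totals ran from 2242879 to 21112908 reads, with a median of 10374007. The 8 libraries of lowest total held at most 4963272 reads and comprised 1 Young Veh, 2 Young PF4, 4 Old Veh and 1 Old PF4 mice. The labels number the Old Veh libraries 1 to 12, the Old PF4 libraries 13 to 23 and the young libraries 24 to 48, so neither age nor, among old mice, PF4 treatment can be told apart from library order. The markers of pyramidal and granule neurons (Camk2a, Slc17a7, Neurod6, Prox1 and Snap25) were summed in CPM, the read count scaled to library size. Their medians were 5742 in Young Veh, 5689 in Young PF4, 6214 in Old Veh and 5889 in Old PF4. They ran from 5144 to 7606 over the 47 libraries. Of these 5 markers, 5 had estimates above 0 in Old Veh against Young Veh, none called. The 5 markers of inhibitory neurons (Gad1, Gad2, Slc32a1, Sst and Pvalb) had medians of 794, 820, 799 and 827 CPM in the same order. In Old Veh against Young Veh 2 of these had estimates above 0 and 3 below, none called. The 5 astrocyte markers summed to medians of 2585, 2520, 2909 and 2795 CPM in the same order, with 1 called higher and 1 lower in Old Veh against Young Veh. The 5 oligodendrocyte markers summed to 6159, 6015, 6672 and 7098 CPM, and all 5 had estimates above 0 in both age comparisons, none called, with 4 at an unadjusted p below 0.05 in PF4 mice. The summed CPM of 8 choroid plexus markers, with Ttr among them, spread widely within every group, and none of the 8 had an unadjusted p below 0.05 in either age comparison. It had a median of 1883 in Young Veh (6.8 to 4149) and 2300.1 in Young PF4 (81.7 to 3361), against 38.2 in Old Veh (8.6 to 4137) and 56.4 in Old PF4 (15.6 to 3190.1). Microglial markers, 5 genes, summed to a median of 269.5 CPM in Young Veh, 272 in Young PF4, 300.3 in Old Veh and 315 in Old PF4, with overlapping ranges, and the fitted log2 change of all 5 was above 0 in Old Veh against Young Veh (median 0.15), with 1 called. In Old PF4 against Young PF4 all 5 had an unadjusted p below 0.05 and 1 was called (median 0.21), and 1 astrocyte marker was called higher. The part of neuronal, astrocyte, oligodendrocyte or microglial content in the values below was not tested. In bulk tissue, fewer cells of a type and less RNA per cell cannot be told apart.

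All 10 families were expressed in the hippocampus. Levels of different genes are compared here per length, as CPM divided by the kilobases of the longest annotated transcript, and averaged over the 47 mice. The median member stood at 7.43 CPM per kb, and the range was 0.589 to 48.4. Sirt2, a cytoplasmic deacetylase abundant in myelinating cells, was highest, followed by Hdac11, the class IV deacetylase, at 43 CPM per kb, and by Smarca2, the BRM motor of the BAF complex, at 38.7. In Young Veh mice Sirt2 was 49.3 ± 4.86 (SD, n = 13) and Hdac11 42.9 ± 2.39 CPM per kb. Smarca2, at 38.1 ± 1.90 in that group, and Smarcc2, a scaffold subunit of the same complex at 37.9 ± 3.22, did not differ beyond their spread.

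The order of levels depended on the length used. With the median transcript length in place of the longest, a member's rank moved by a median of 10 places and by as many as 63. Sirt2, at rank 1 by the longest transcript, was at rank 12 by the median. Smarca2 (rank 3 by the longest transcript and 1 by the median), Chd3 (ranks 9 and 3), the motor of the NuRD repressor complex, and Hdac11 (ranks 2 and 5) stood high on both scales. At the low end were Arid3a at 0.589 and Kdm4d at 0.654 CPM per kb of the longest transcript, so Kdm4d reached at most 38 reads in any library. Within groups the members were steady: the coefficient of variation over mice, taken as the median of the 4 groups, ran from 4.50% for Arid1a, the ARID subunit of canonical BAF, to 23.5% for Kdm6b, a demethylase of H3K27 induced by neuronal activity, with a median of 9.86% over the members.

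**Figure D1:**
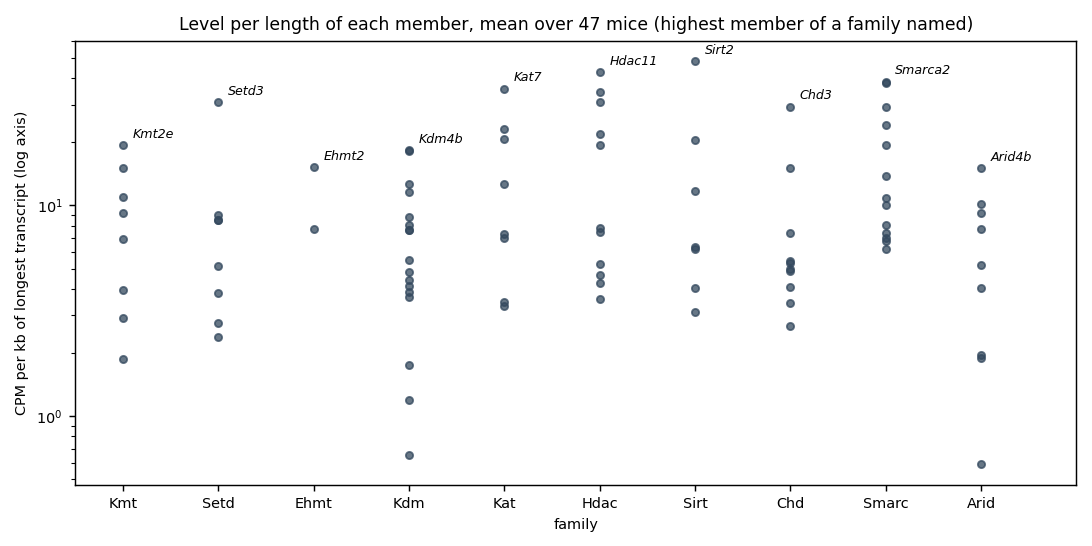
Level of each of the 93 members in CPM per kb of its longest annotated transcript (vertical log axis), averaged over 47 mice and grouped by family (horizontal axis), with the highest member of each family named. Each point is 1 gene. Sirt2 is highest at 48.4 and Arid3a lowest at 0.589.

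With age, in mice given vehicle, transcripts of a small set of chromatin genes rose by 11.5% to 27.1% and none fell past the threshold. The 6 that rose were the acetyltransferase gene Kat6b, the methyltransferase gene Setd2, the SET-domain gene Setd5, the remodelers Chd7 and Chd8, and Arid4b, a subunit of the Sin3 deacetylase complex. These 6 of 93 members (6.45%), called at an adjusted p below 0.05 in the quasi-likelihood test of edgeR (Benjamini-Hochberg over all genes tested), compare with 492 of all 17778 genes (2.77%). All were higher in Old Veh, as were 384 of the genes called (2.16% of all). At an unadjusted p below 0.05 there were 16 members (17.2%) against 15.2% of all genes, so the members as a whole moved about as often as other genes did. The median log2 change over the members was 0.01, against -0.01 over all genes tested, and 49 members had estimates above 0 and 44 below.

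Kat6b encodes MORF, the catalytic subunit of a complex that acetylates histone H3. Its level was 37.6, 52.3 and 57 CPM (lowest, median and highest mouse) in Young Veh and 48.7, 68 and 75.7 CPM in Old Veh. In 9 of 12 Old Veh mice it lay above every Young Veh mouse. The rest were at or below the Young Veh median, within the Young Veh range. The log2 change was 0.35 (SE 0.069), an increase of 27.1%, with an adjusted p of 0.00145. The paralogue Kat6a, which encodes MOZ in the same complex, stood at 17.1, 29.3 and 36.2 CPM in Young Veh and 26.2, 35.4 and 44.8 CPM in Old Veh. Its log2 estimate of 0.29 was near that of Kat6b, but with an SE of 0.10 it was not called (adjusted p = 0.125). The other 6 Kat genes had estimates between -0.12 and 0.01, and none was called.

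Setd2 encodes the enzyme that trimethylates H3K36 behind elongating RNA polymerase II. Its level was 57.2, 65.8 and 76.9 CPM in Young Veh and 68.5, 76.9 and 87.8 CPM in Old Veh. All 12 Old Veh mice exceeded the Young Veh median and 6 exceeded every Young Veh mouse. The log2 change was 0.20 (SE 0.044, adjusted p = 0.00479). Setd5, a SET-domain protein whose loss of function causes intellectual disability in humans, was at 43.5, 56.9 and 69.4 CPM in Young Veh and 58.3, 69.1 and 76 CPM in Old Veh. Here too all 12 Old Veh mice exceeded the Young Veh median, and 5 exceeded every Young Veh mouse. Its log2 change was 0.24 (SE 0.064, adjusted p = 0.0269). Setd5 lost its call when Old Veh replicate 5 (adjusted p = 0.0528) or Young Veh replicate 4 (0.054) was left out.

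The 6 catalytic genes of the COMPASS complexes, which methylate H3K4, are Kmt2a, Kmt2b, Kmt2c, Kmt2d, Setd1a and Setd1b. None of the 6 was called, and all 6 had estimates above 0, from 0.03 to 0.16, with a median of 0.09. Kmt2a (MLL1), which maintains active genes in neurons, gave a log2 estimate of 0.16 (SE 0.055, adjusted p = 0.0958), and 7 of 12 Old Veh mice lay above every Young Veh mouse. Ehmt1 and Ehmt2, the partners that dimethylate H3K9, gave 0.01 and -0.03. Kmt5a, which places the single methyl group on H4K20, gave a log2 estimate of -0.14 (SE 0.062, adjusted p = 0.273), with a median of 39.4 CPM in Old Veh and 43.5 in Young Veh.

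Chd7 encodes a remodeler known for its part in CHARGE syndrome and in adult neurogenesis. Its level was 17.8, 24.9 and 28.7 CPM in Young Veh and 22.4, 28.7 and 36.5 CPM in Old Veh. In 6 of 12 Old Veh mice it exceeded every Young Veh mouse, and the groups otherwise overlapped. The log2 change was 0.28 (SE 0.066, adjusted p = 0.0085). Chd8, a high-confidence autism gene, was at 34.3, 43 and 48.6 CPM in Young Veh and 41.3, 48 and 52.7 CPM in Old Veh, and 11 of 12 Old Veh mice exceeded the Young Veh median. Its log2 change of 0.19 (SE 0.053, adjusted p = 0.0431) was close to the threshold, and it lost the call in 14 of the 25 fits that left out a library of either group: Old Veh replicates 1, 3, 5, 6, 7, 8 and 10 and Young Veh replicates 2, 3, 4, 8, 10, 12 and 13, with adjusted p from 0.0513 to 0.079.

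The 9 chromodomain genes Chd1 to Chd9 all had age estimates above 0, from 0.02 to 0.28 with a median of 0.13, and 6 of the 9 had an unadjusted p below 0.05, against 15.2% of all genes. Only Chd7 and Chd8 were called. Chd6 gave a log2 estimate of 0.13 (SE 0.041, adjusted p = 0.059), and all 12 Old Veh mice exceeded the Young Veh median. Chd4, the main motor of NuRD, gave 0.13 (SE 0.043, adjusted p = 0.0835). Chd1 and Chd9 gave 0.14 and 0.16. Chd5, the neuronal NuRD motor, gave 0.02 (SE 0.082), with a 95% interval from -0.15 to 0.18. Chd1l, which has no chromodomain, was the exception among the 10 at -0.06.

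Arid4b was at 77.4, 83.4 and 92.3 CPM in Young Veh and 79.6, 91.8 and 113 CPM in Old Veh, and 6 of 12 Old Veh mice exceeded every Young Veh mouse. The log2 change was 0.16 (SE 0.044, adjusted p = 0.0382). The call was lost in 8 of 25 fits, those without Old Veh replicates 7, 8, 10 or 12 or Young Veh replicates 2, 3, 8 or 12, with adjusted p from 0.0504 to 0.0718. The libraries carry no strand information, and genes that overlap Arid4b by position, with Ggps1 among them, held 44020 reads against its own 42020, so reads of the overlapping stretch cannot be told apart. For Setd2 and Chd8 the overlapping genes held 565 and 1976 reads against 33546 and 21639, and Kat6b, Chd7 and Setd5 overlap no annotated gene. Among the other Arid genes, Arid1a, Arid1b and Arid2, the DNA-binding subunits of the BAF and PBAF complexes, gave 0.03, -0.04 and -0.09.

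**Figure D2:**
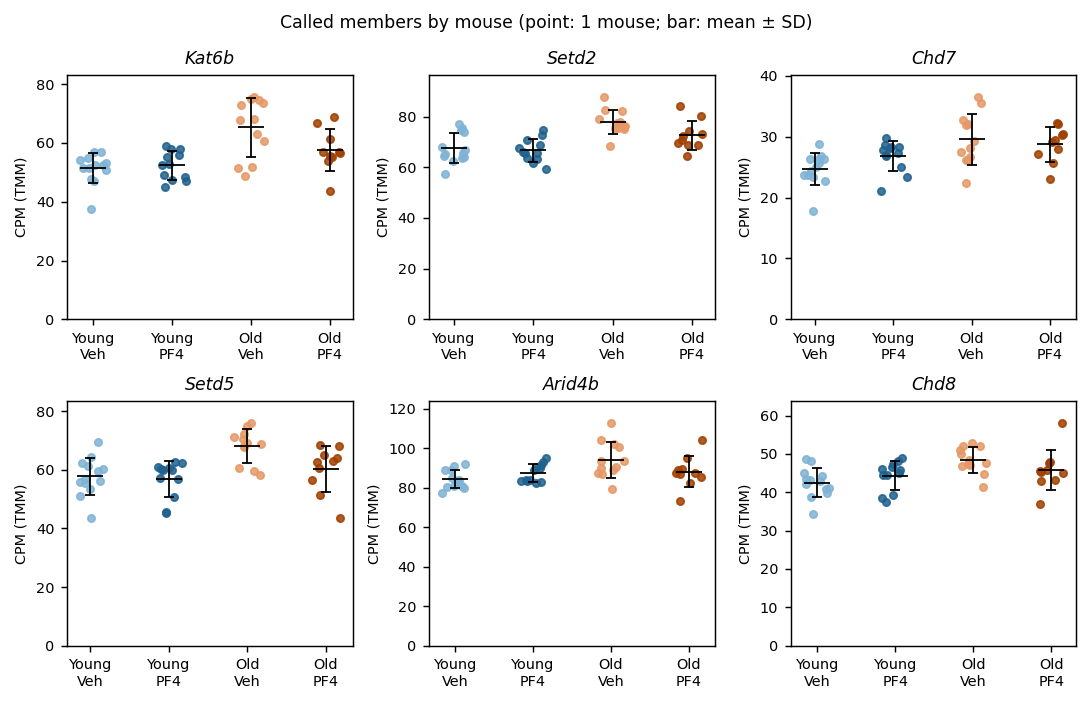
Level in CPM (vertical axes, starting at 0, TMM-normalised) of the 6 members called between Old Veh and Young Veh, by group (horizontal axes). Each point is 1 mouse and the bars give the mean ± SD of 13 Young Veh, 12 Young PF4, 12 Old Veh and 10 Old PF4 mice. Old Veh has the highest mean of the 4 groups in every panel, and its range overlaps that of Young Veh in each.

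No Smarc, Hdac, Sirt or Kdm gene was called with age in vehicle mice. A list of 12 subunits of the BAF complex and its PBAF form, with Smarca4 (BRG1) and Smarca2 as motors, gave estimates from -0.09 (Arid2, of PBAF) to 0.09, with 5 above 0 and 7 below. Smarca4 was at a median of 157 CPM in Young Veh and 155 in Old Veh, and its log2 estimate of -0.01 had an interval from -0.07 to 0.06, among the narrowest of all members. The motors of ISWI complexes, Smarca1 and Smarca5, gave 0.06 and -0.05. Of the 13 Smarc genes none had an unadjusted p below 0.05.

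Among the deacetylases, the 4 class I genes (Hdac1, Hdac2, Hdac3 and Hdac8) had estimates of -0.03 to -0.08 and none was called. Hdac2, which restrains synaptic genes in neurons, was at a median of 117 CPM in Young Veh and 109 in Old Veh. Hdac4, a class IIa deacetylase that moves between cytoplasm and nucleus with neuronal activity, was at 142, 163 and 177 CPM in Young Veh and 128, 149 and 161 CPM in Old Veh. All 12 Old Veh mice lay below the Young Veh median and 4 lay below every Young Veh mouse. Its log2 estimate was -0.15 (SE 0.050, adjusted p = 0.0886), which did not pass the test. The sirtuins, NAD-dependent deacylases, had estimates from -0.08 to 0.02 and none had an unadjusted p below 0.05. Sirt1 was at a median of 13.7 CPM in Young Veh and 12.5 in Old Veh.

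No demethylase was called. Of the 17 Kdm genes, 10 had estimates above 0 and 7 below. Kdm3a, which removes methyl groups from H3K9, gave 0.12 (SE 0.049, adjusted p = 0.174), and Kdm2b, which acts on H3K36 and recruits Polycomb complexes to CpG islands, gave -0.12 (SE 0.055, adjusted p = 0.285). Kdm5c, an X-linked eraser of H3K4 methylation mutated in intellectual disability, gave -0.13 (SE 0.072). Kdm6b, the most variable member, gave -0.05 with an interval from -0.28 to 0.19.

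**Figure D3:**
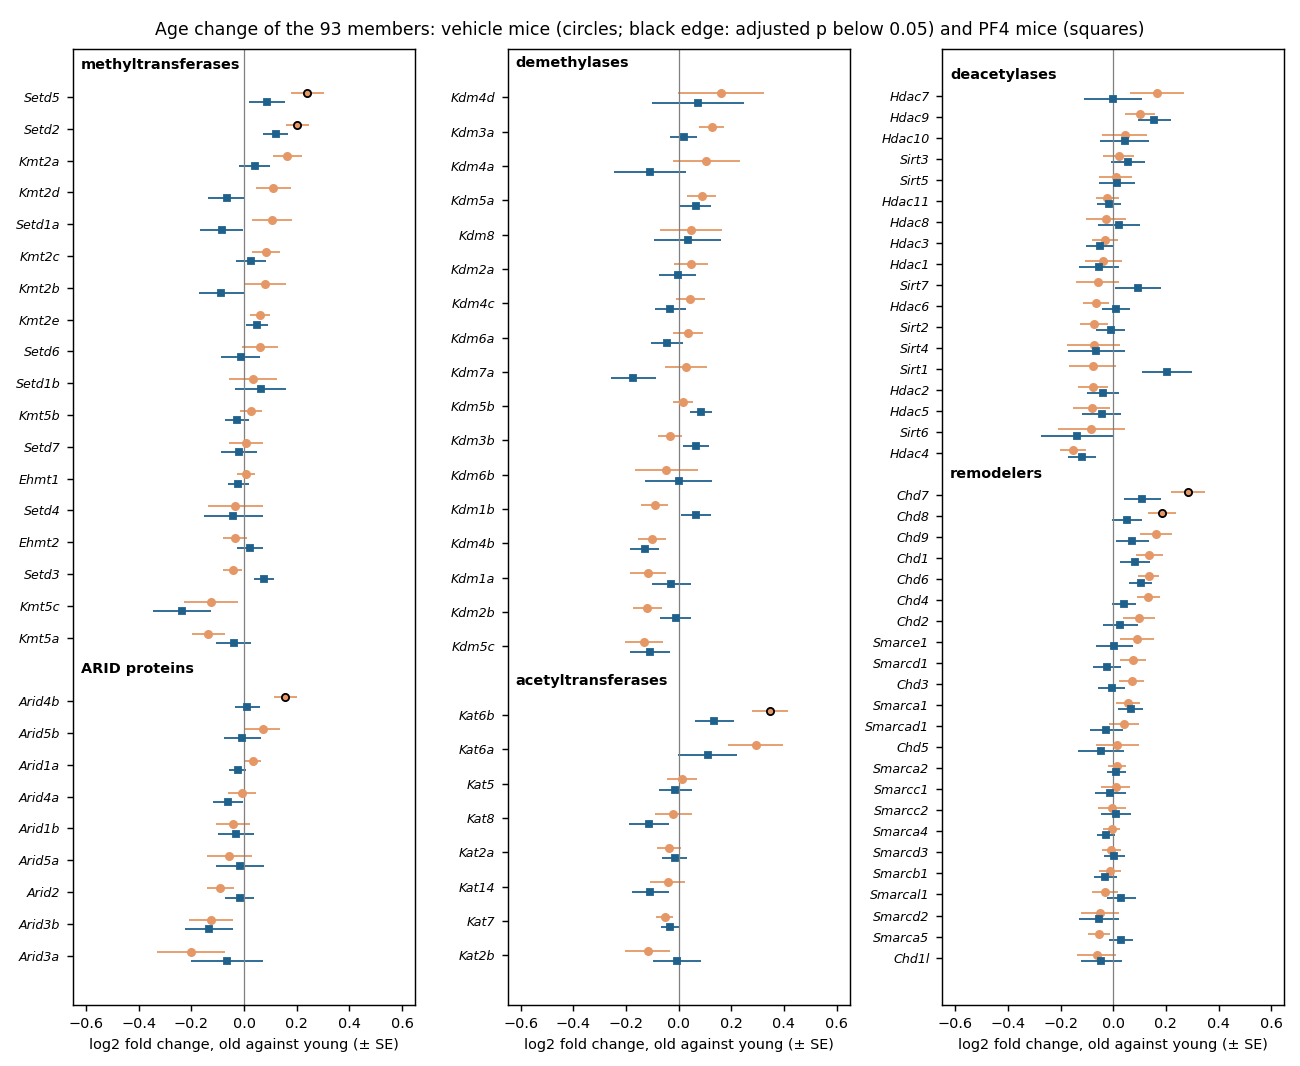
Fitted log2 fold change of old against young mice (horizontal axes, ± SE) for each of the 93 members, grouped by role. Circles are vehicle mice (12 Old Veh, 13 Young Veh), with a black edge for the 6 members at an adjusted p below 0.05, and squares are PF4 mice (10 Old PF4, 12 Young PF4), in which no member passed.

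The called members have long transcripts, and so do the chromatin genes as a class. The median longest transcript was 5180 bases over the members and 3150 bases over all genes tested with a length. Genes were set in 3 bands of about equal number, and all 6 called members lay in the band of at least 4038 bases, where 267 of 5891 genes (4.53%) were called higher in Old Veh, against 6 of 61 members (9.84%). In the band of at most 2394 bases, 0.866% of genes were called higher and none of 9 members was. With the median transcript length in its place, the long band held 4 of the called genes among 32 members (12.5%, against 3.40% of all genes in it) and the middle band held the other two among 34 (5.88%, against 1.84%). A length index was computed for each library as the mean gene-centred log2 CPM of long genes minus that of short genes. It had a median of 0.03 in Old Veh and 0.01 in Young Veh, and its lowest value, -0.30, in Young Veh replicate 4. With the index as a covariate the 6 remained called and Hdac2 (-0.13, adjusted p = 0.0488) and Kmt5a (-0.18, adjusted p = 0.0383) were called as lower in Old Veh, 8 members in all. Without the index neither Hdac2 nor Kmt5a was called (edgeR adjusted p = 0.542 and 0.273). The log2 change of Kat6b was then 0.29 in place of 0.35.

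**Figure D4:**
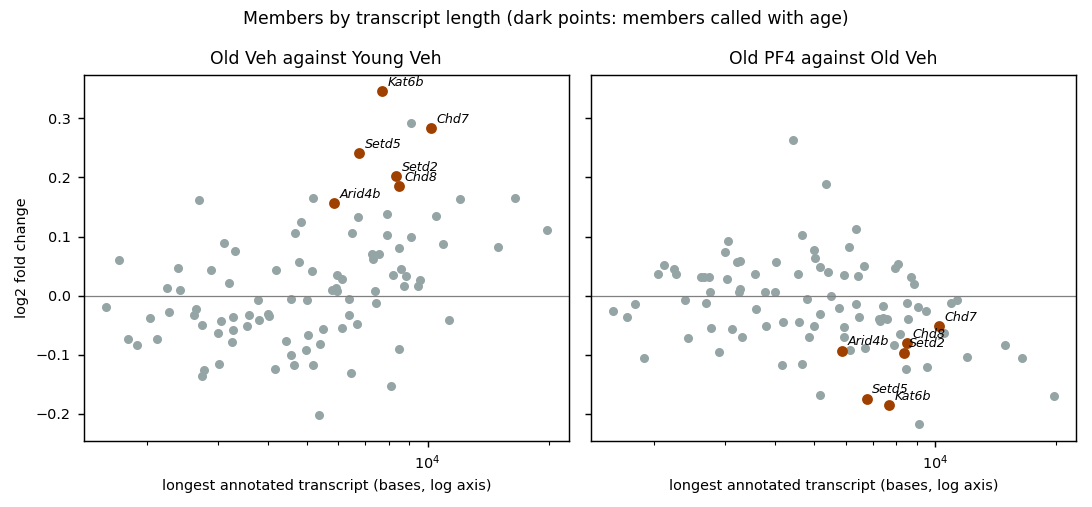
Fitted log2 fold change of each of the 93 members (vertical axes) against the length of its longest annotated transcript in bases (horizontal log axis), for Old Veh against Young Veh and for Old PF4 against Old Veh. The 6 members called with age are named and lie at 0.16 to 0.35 in the first panel and at -0.19 to -0.05 in the second, which shares the Old Veh libraries with the first.

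The 6 calls differed in how firmly they stood. Kat6b, Setd2 and Chd7 stayed called in all 25 fits that left out a library of either group and without the 8 libraries of lowest total, where those were the 3 members called. Chd7 was then at 0.38 (adjusted p = 0.0017), Kat6b at 0.35 (0.0151) and Setd2 at 0.21 (0.0292), while Setd5, Chd8 and Arid4b were at 0.25, 0.20 and 0.15 and not called. With the choroid plexus score of each library as a covariate, 4 stayed called (Kat6b 0.33, Setd2 0.22, Chd7 0.27 and Setd5 0.27), while Arid4b (0.15) and Chd8 (0.18) each had an adjusted p of 0.088. With library number as a covariate, which largely repeats age, none was called, and the SE of Kat6b rose from 0.069 to 0.148. The estimates stayed above 0: Chd8 was at 0.37, Setd5 at 0.37, Chd7 at 0.33, Kat6b at 0.25, Arid4b at 0.24 and Setd2 at 0.15. DESeq2 called 6 members, the same 6, and 627 of all genes, where edgeR called 492. It found 15 members at an unadjusted p below 0.05.

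Of the called genes, Kat6b lies at chr14:21481434-21672478 on the plus strand, Setd2 at chr9:110532597-110618633 (plus), Setd5 at chr6:113077365-113153435 (plus), Chd7 at chr4:8690406-8867659 (plus), Arid4b at chr13:14063232-14199603 (plus) and Chd8 at chr14:52198151-52257780 (minus), in GRCm38. RefSeq promoter windows of 300 bases were at hand for 73 members and for 5 of the called genes, all but Chd7. The GC box, a motif bound by Sp1 and its relatives and searched as GGGCGG on both strands, was in 50 of the 73 (68.5%) and in 35.9% of all 27025 promoters, and among the called genes in Kat6b, Setd2 and Chd8. The ETS motif CCGGAAG was in 14 of the 73 (19.2%, against 9.12% of all) and the NRF1 motif GCATGCGC in 6 (8.22%, against 2.80%). The cAMP response element TGACGTCA was in none of the 73 and in 1.88% of all. CG dinucleotides numbered a median of 22 per window over the members and 7 over all promoters. The promoters set beside the members were not matched for expression or CG content, so these shares are not shown to be particular to chromatin genes. To show such a sequence, 100 bases that overlap no GENCODE exon are given for the 2 genes of smallest p, on the plus strand of GRCm38.p6 (Kat6b chr14:21499670-21499769, within the gene's span, and Setd2 chr9:110532400-110532499), with GC boxes in capitals.
Kat6b: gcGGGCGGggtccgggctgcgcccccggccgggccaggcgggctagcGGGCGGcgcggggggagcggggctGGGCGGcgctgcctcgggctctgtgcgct
Setd2: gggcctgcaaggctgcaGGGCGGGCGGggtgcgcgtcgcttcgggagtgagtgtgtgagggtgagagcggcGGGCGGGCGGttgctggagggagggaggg
The Kat6b stretch held 3 GC boxes and the Setd2 stretch 4, some of which overlap.

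In mice given PF4, age was not accompanied by a called change in any member. Old PF4 against Young PF4 shares no library with the vehicle comparison. It gave 0 of 93 members at an adjusted p below 0.05 in edgeR's test and 0 in DESeq2. Of all genes, edgeR called 59 (0.332%) and DESeq2 90. At an unadjusted p below 0.05 there were 9 members (9.68%) in edgeR and 9 in DESeq2, against 8.27% of all genes in edgeR. The median log2 change over the members was -0.01, and over all genes 0.00, and 40 members had estimates above 0.

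The 6 genes that rose with age in vehicle mice all had estimates above 0 in PF4 mice, and each was smaller there. Kat6b went from a median of 52.6 CPM in Young PF4 to 56.8 in Old PF4 (log2 0.14, SE 0.074), and 3 of 10 Old PF4 mice exceeded every Young PF4 mouse. Setd2 went from 66 to 71.6 CPM (0.12, SE 0.048, unadjusted p = 0.0149, adjusted p = 0.417). Chd7 and Setd5 gave 0.11 and 0.09, with intervals of -0.03 to 0.25 and -0.05 to 0.22. Chd8 gave 0.05 and Arid4b 0.01.

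The same fit tests whether the age change differed between PF4 and vehicle mice, which is the same contrast as the difference of the PF4 changes between ages. None of the 93 members passed after adjustment in edgeR or DESeq2, and none of all genes did in edgeR (0.0%). Unadjusted, 5 members (5.38%) had a p below 0.05, against 3.98% of all genes, and DESeq2 found 4. They included Kat6b, whose age change was 0.21 lower on the log2 scale in PF4 mice (SE 0.10, unadjusted p = 0.0425), and Arid4b, with 0.14 lower (SE 0.065, unadjusted p = 0.0299). Sirt1, Setd3 and Kdm1b were the others, with differences of 0.28, 0.12 and 0.16. A call in vehicle mice and none in PF4 mice is therefore not shown to differ between them.

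The members of smallest p in the PF4 age comparison were partly others. Hdac9, a class IIa deacetylase, was at 47.7, 55.9 and 62.8 CPM in Young PF4 and 53.3, 60.2 and 76 CPM in Old PF4 (log2 0.16, SE 0.061, adjusted p = 0.403). Its estimate in vehicle mice was 0.10. Chd6 gave 0.10 in PF4 mice (SE 0.044, adjusted p = 0.475) and 0.13 in vehicle mice. Kdm4b, an eraser of H3K9 and H3K36 methylation, gave -0.13 in PF4 mice and -0.10 in vehicle mice. Hdac4 gave -0.12 (SE 0.054, adjusted p = 0.533) and -0.15. The same sign in both treatments was also seen for Setd2, Kmt5c (-0.23 and -0.13) and Kdm5b (0.09 and 0.02), so 7 of the 9 kept it. The other two did not: Sirt1 gave 0.20 in PF4 mice and -0.08 in vehicle mice, and Kdm7a, an eraser of H3K9 and H3K27 methylation, gave -0.17 in PF4 mice (SE 0.085, adjusted p = 0.595) and 0.03 in vehicle mice. Of the 9, the sole call in either was Setd2 in vehicle mice.

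Among old mice, PF4 gave no called change in any member. Old PF4 against Old Veh had 0 of 93 at an adjusted p below 0.05 in edgeR and 0 in DESeq2. Of all genes, edgeR called 6 (0.0337%) and DESeq2 24, and DESeq2 left 1 member without an adjusted p. Unadjusted, 8 members (8.60%) were below 0.05 in each tool, against 6.2% of all genes in edgeR. The estimates were above 0 for 36 members and below for 57, where 54.0% of all genes were above 0. In the band of transcripts of at least 4038 bases, 17 of 61 members (27.9%) were above 0 and 42.9% of all genes. The median was -0.02 over the members and 0.01 over all genes. This comparison shares the Old Veh libraries with the age comparison in vehicle mice, so the values of both are given side by side and their likeness is not read.

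Sirt1, the NAD-dependent deacetylase known for its links to metabolism and to synaptic plasticity, had the smallest p. Its level was 10.3, 12.5 and 16.6 CPM in Old Veh and 12.2, 15.8 and 19.1 CPM in Old PF4, and 5 of 10 Old PF4 mice exceeded every Old Veh mouse. In the young groups it was 11.6, 13.7 and 15.6 CPM with vehicle and 10.7, 11.7 and 17.8 CPM with PF4. The log2 estimate in old mice was 0.26 (SE 0.096, unadjusted p = 0.0083, adjusted p = 0.560), and the age estimates were -0.08 in vehicle and 0.20 in PF4 mice.

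Setd5 was at 58.3, 69.1 and 76 CPM in Old Veh and 43.7, 62.8 and 68.3 CPM in Old PF4. All 10 Old PF4 mice were below the Old Veh median and 3 were below every Old Veh mouse (log2 -0.17, SE 0.069, adjusted p = 0.648). Kat6b gave -0.19 (SE 0.074, adjusted p = 0.663), with a median of 68 CPM in Old Veh and 56.8 in Old PF4, and 1 of 10 Old PF4 mice was above the Old Veh median. Kat6a gave -0.22 (SE 0.11). Kmt2d (MLL4), the enhancer methyltransferase of H3K4, was at 68.4, 81.6 and 102 CPM in Old Veh and 60.2, 73.2 and 86 CPM in Old PF4 (-0.17, SE 0.070, adjusted p = 0.691). Setd3, a methyltransferase of actin histidine, gave 0.09 (SE 0.039), and all 10 Old PF4 mice exceeded the Old Veh median of 91.9 CPM. Chd1 to Chd9 gave estimates from -0.10 to -0.02, with 0 of 9 at an unadjusted p below 0.05. The other called genes of the age comparison gave -0.10 (Setd2), -0.09 (Arid4b), -0.08 (Chd8) and -0.05 (Chd7).

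In young mice no member was called with PF4. Young PF4 against Young Veh had 0 of 93 members called in edgeR and 0 in DESeq2, as with 0 of all genes (0.0%) in edgeR. Unadjusted, Setd1a was the 1 member of 93 below 0.05, against 1.2% of all genes, and DESeq2 found 0. Setd1a, a COMPASS writer of H3K4 methylation and a schizophrenia risk gene, was at a median of 14.6 CPM in Young Veh and 16.4 in Young PF4 (log2 0.16, SE 0.076, unadjusted p = 0.0469). Estimates over the 93 members ran from -0.11 to 0.16, a narrower range than the -0.20 to 0.35 of the age comparison in vehicle mice. Changes were smaller over all genes too. The median absolute log2 change was 0.027 over the members and 0.041 over all genes, against 0.064 and 0.081 in that age comparison.

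Other chromatin genes whose symbols the rule does not match were listed by function: DNA methyltransferases and their partners, Polycomb and Sin3 subunits, and further acetyltransferases, demethylases and remodelers. Of 95 listed, 92 were tested. With age in vehicle mice 5 were called higher and 1 lower, and 17 had an unadjusted p below 0.05 with higher and 7 with lower values. Over all genes tested, 2.77% were called and 15.2% had an unadjusted p below 0.05. Ash1l, a methyltransferase of H3K36, went from a median of 161.3 CPM in Young Veh to 184.6 in Old Veh (log2 0.22, SE 0.048, adjusted p = 0.0051). The remodelers Atrx and Rad54l2, the Kdm relative Jmjd1c and the coactivator Ncoa2 rose by 0.14 to 0.22, and Sin3b, a scaffold of the Sin3 deacetylase complex, fell by 0.28. The count of 6 ran from 3, without Old Veh replicates 6 or 7, to 11, without Young Veh replicate 4. It was 3 with the choroid plexus covariate, and none of the 6 stayed called without the 8 libraries of lowest total or with library number as a covariate.

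None of the 92 was called by edgeR or DESeq2 in the other comparisons. In Old PF4 against Young PF4, 5 had an unadjusted p below 0.05, against 8.27% of all genes. In Old PF4 against Old Veh, 10 did, 1 with a higher and 9 with a lower value, against 6.2% of all genes. In Young PF4 against Young Veh 0 did (1.2% of all genes), and for the difference of the PF4 changes between ages 6 did (3.98%). Ash1l gave 0.07 in Old PF4 against Young PF4. In Old PF4 against Old Veh, which shares the Old Veh libraries with the age comparison in vehicle mice, it gave -0.14 (SE 0.051, adjusted p = 0.602).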

How the data were processed

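Hippocampal RNA was made into libraries with Smart-Seq2 and Nextera XT, without strand information, per the labels. What the authors deposited are whole-number read counts for each gene, not normalized. The submitters' processing notes name Trim Galore 0.3.7, STAR 2.5.3a, GRCm38 and DESeq2. The read counter and the annotation are not given in the sources used here. The study left out samples of low coverage before deposit, and Old PF4 replicate 4 was not analysed here.

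The deposited counts of 47 libraries were fitted with the quasi-likelihood test of edgeR 4.0.16 (R 4.3.3) as 4 groups in a single fit, with TMM normalization and the filterByExpr filter, which 17778 genes passed. Adjusted p-values are Benjamini-Hochberg values over all genes tested, with a threshold of 0.05. The SE of a log2 fold change is its absolute value divided by the square root of F. CPM values use TMM library sizes. Libraries are separate mice per the labels. The highest Spearman correlation between any pair of libraries was 0.994, and none was counted as a repeat. Gene positions and transcript lengths came from GENCODE M21 (GRCm38), and promoter windows, 250 bases before to 50 after a start, from RefSeq (GRCm38.p6). A length was found for 99.4% of the genes tested. The choroid plexus score was the mean log2 CPM of the 8 markers, with a prior count of 2.

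The members and gene lists were chosen with earlier results of these data known. Named genes are the called members, those of smallest p in each comparison, the highest of each family per length, members with known roles in neurons or glia and those nearest the count minimum, 46 in all. Some further members are named as an extreme or neighbour in a ranking, as part of a listed complex or family, or for an unadjusted p below 0.05. Genes outside the members come from the fixed lists, or are named for the count minimum or an overlap by position. A gene of the list of other chromatin genes is not reported here and is left out of its counts.

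Alternatives were DESeq2 1.42.0 and its size factors, a filter of a summed count of at least 10, a replicate block, the length index or library number as covariates, the libraries of a comparison alone, leaving out the 8 libraries of lowest total and leaving out each library in turn. The choroid plexus covariate was added after seeing the data. On simulated counts for Old Veh against Young Veh over 17633 genes, edgeR recovered 26.9% of 67 genes changed by 0.25 on the log2 scale, 72.7% of 66 changed by 0.5 and 98.5% of 66 changed by 1, with 5 other genes called. The changed genes were drawn at random from all genes tested. Counts were drawn independently, without effects shared by the genes of a library. The percentages are therefore not the recovery for the members in these libraries.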

Additional observations from a re-analysis of the deposited data

Results flagged for a closer look

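Within the 10 Old PF4 mice, 5 of the 46 named members had a highest or lowest mouse set apart from the rest, with a gap to its neighbour, as a share of the group's range, above Dixon's critical value for 10 samples. Chance flags about 1 in 20 such groups taken singly. The named members share the same mice, and some were named for a small p in comparisons that use these mice. That rate therefore does not carry over to the 46 together. Old PF4 replicate 8 was the lowest mouse for Chd3 (158.5 CPM, next 199.0), Chd5 (42.5 CPM, next 60.6) and Kat6a (15.8 CPM, next 27.1) and the highest for Kdm6b (66.0 CPM, next 38.2). This library also had the lowest length index of its group, -0.20. Its part in these values was not tested. Old PF4 replicate 11 was the highest mouse for Chd8 (58.0 CPM, next 47.9). None of the 5 genes was called in a comparison that uses these mice.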

How the results depend on the processing

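The count of members called in Old Veh against Young Veh, 6 as reported, was 6 with DESeq2, with DESeq2's size factors and with the libraries of the comparison alone (Hdac4 in place of Arid4b), 8 with the length index, 4 with the lower count filter and with the choroid plexus covariate, 3 without the 8 libraries of lowest total and 0 with library number as a covariate, where the 6 estimates were from 0.15 (Setd2) to 0.37 (Chd8), all above 0. It ran from 4 to 8 when single libraries were left out. With library number, the estimate of Kmt5a turned from -0.14 to 0.085, and that of Hdac2 went from -0.08 to -0.0005. The other comparisons had 0 members called under every alternative run.

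With the replicate number as a block, 5 members were called and Chd8, at 0.18, was not. The numbers do not pair the mice: over 66 pairs with the same number the median correlation of their deviations was -0.01, and 21 were above 0.1.

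Of the other chromatin genes, the 6 called with age became 11 with the length index, 3 with the choroid plexus covariate, 0 without the 8 lowest libraries and 0 with library number, and 3 to 11 with single libraries left out. The lowest were without Old Veh replicates 6 or 7 and the highest without Young Veh replicate 4.

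The lowest members had few reads: Kdm4d had 3 to 38 in a library and Arid3a 6 to 73. The part of depth in their values was not tested.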
